A study of Drosophila melanogaster with 4 samples.

Results

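Isolated H3K9ac clusters are enriched regions that stand alone on the chromosome, with no other enriched region nearby. They were taken from the series-wide list of enriched regions, in which each region is termed a cluster. A cluster was counted as isolated when it lay on arm X, 2L, 2R, 3L or 3R, was under 8000 bp wide, and was separated by at least 10000 bp from the next cluster on each side. The first and the last cluster of each arm were left out. The rule took 671 of the 12155 clusters on these arms, or 5.52%, out of 12322 clusters on all sequences. The members were thus chosen by their positions, widths and gaps in the series-wide list, and those values are given below as a description only.

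The material was wild-type Oregon-R embryos of Drosophila melanogaster, 14 to 16 h old and reared in population cages. It gave 2 samples of chromatin recovered with an H3K9ac antibody, termed ChIP replicates 1 and 2, and 2 input samples without antibody, which have no values of their own here. The deposited lists hold 8495 clusters for replicate 1, 6772 for replicate 2 and 12322 for the series as a whole. Whether each replicate had its own batch of embryos is not stated, and their spread could be technical. Whole embryos hold many tissues, and a cluster carried by few cells cannot be told apart from a weak one in all cells.

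H3K9ac is histone H3 acetylated at lysine 9. In flies the acetyl group is placed by Gcn5, the catalytic subunit of the SAGA and ATAC coactivator complexes, and it is removed by histone deacetylases. The mark sits on nucleosomes around the starts of active genes, and it is taken as a sign of open, transcribed chromatin. Active fly genes tend to lie close together, and gene-poor stretches and the chromatin near centromeres carry few such marks.

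Coordinates are those of FlyBase release 5, the release in the file headers, counted from 1. The available gene table is of Release 6, so clusters are named by position, and the genes at these positions were not analysed here. The score of a cluster is the one its authors deposited, on a scale that the sources used here do not explain. It serves to rank clusters within a list, and values from different lists are set side by side only. The series-wide list was made for the same replicates, so overlap with them is a description and no difference below was tested. Read depth is unknown. Intervals on shares are 95% Wilson intervals and cover counting error alone.

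The 671 isolated clusters were small regions in wide empty stretches. Their median width was 1603 bp, with quartiles of 1188 and 2353 bp, against a median of 2109 bp for the 11484 other clusters of the same arms. The nearer neighbour lay a median of 14645 bp away and the farther one 30607 bp away. From neighbour to neighbour the stretch that held an isolated cluster measured a median of 49641 bp. In 185 of them both gaps reached 20000 bp, and in 19 both reached 50000 bp. Together they spanned 1310 kb, or 3.89% of the clustered bases of the 5 arms.

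The gaps were also nearly empty in the replicate lists. This is not independent of the rule, because the series-wide list was made for the same replicates, and it is given as a check of the label. Of the clusters isolated in the replicate lists themselves, all but 9 of 803 in replicate 1 and all but 27 of 1000 in replicate 2 overlapped the series-wide list. Of the 318 isolated clusters that replicate 1 overlapped, 312 had no neighbour within 10000 bp in that replicate's own list, or 98.1% (95.9 to 99.1%), where 10.3% of all clusters shared with replicate 1 were isolated there. In replicate 2 this held for 239 of 253, or 94.5% (90.9 to 96.7%), where the share of all clusters shared with it was 17.1%. The mean of the replicates was 96.3% ± 2.58 (SD, n = 2). A replicate cluster outside the series-wide cluster itself lay within 10000 bp of 28 of the 671, in replicate 1 for 9 of them and in replicate 2 for 19. In the other direction the share was smaller: the replicate 1 list held 803 isolated clusters by the same rule, of which 312 were isolated in the longer series-wide list, or 38.9%. For replicate 2 this was 239 of 1000, or 23.9%. The replicate lists are shorter, and their clusters are spaced more widely.

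**Figure D1:**
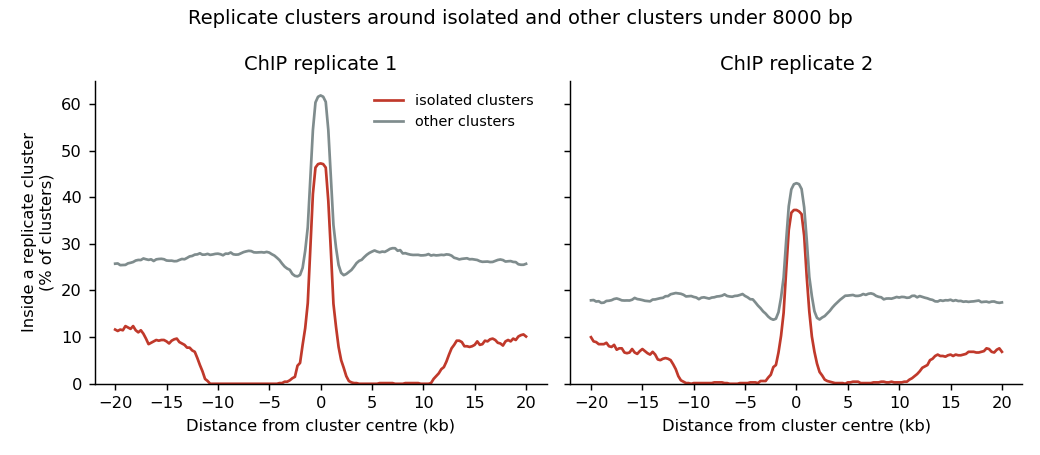
The share of clusters (y axis, percent) at which a replicate cluster covers the position at a given distance from the centre of the series-wide cluster (x axis, kb), for the 671 isolated clusters in red and the 11071 other clusters under 8000 bp in grey, in each ChIP replicate. At 6 to 10 kb from the centre at most 0.149% of isolated clusters had a replicate 1 cluster and at most 0.447% a replicate 2 cluster, where at least 27.5% and 18.1% of the others did.

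At least 1 replicate list held 357 of the 671 isolated clusters, or 53.2%, where 68.3% of all clusters were in at least 1. Replicate 1 overlapped 318 of the 671 by at least 1 bp, or 47.4% (43.6 to 51.2%), against 65.1% of the other clusters and 64.1% of all 12155. Replicate 2 overlapped 253, or 37.7% (34.1 to 41.4%), against 48.0% of the others and 47.5% of all. The mean share was 42.5% ± 6.85 for isolated clusters and 56.6% ± 12.04 for others (SD, n = 2 replicates), and the difference was -17.7 points in replicate 1 and -10.3 points in replicate 2, a mean of -14.01 ± 5.19. Both replicates overlapped 214 isolated clusters, or 31.9% (28.5 to 35.5%), where 43.3% of all clusters had both. Neither replicate overlapped 314, or 46.8% (43.05 to 50.6%), where 31.7% of all clusters had neither. Replicate 1 alone held 104, or 15.5%, where its share of all was 20.8%, and replicate 2 alone held 39, or 5.81%, where its share of all was 4.15%.

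On each of the 5 arms the share found in both replicates was lower for isolated clusters. On the X it was 28.2% for isolated clusters and 43.4% for others, and on 2L it was 28.5% for isolated clusters and 41.5% for others. On 2R it was 38.2% for isolated clusters and 47.0% for others, on 3L 35.2% for isolated clusters and 43.3% for others, and on 3R 31.6% for isolated clusters and 44.5% for others. Among isolated clusters, 34.7% (28.4 to 41.4%) of the 202 with a nearer gap of 10000 to 11999 bp were in both replicates. Of the 72 with a nearer gap of 30000 bp or more, 30.6% (21.1 to 42.0%) were, and these intervals overlap. The gap classes between had 30.0%, 27.6% and 35.4%. From the smallest gaps to the largest, the share in neither replicate was 44.1%, 45.3%, 48.5%, 48.7% and 51.4%. Median width fell from 1730 to 1428 bp over the same classes.

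**Figure D2:**
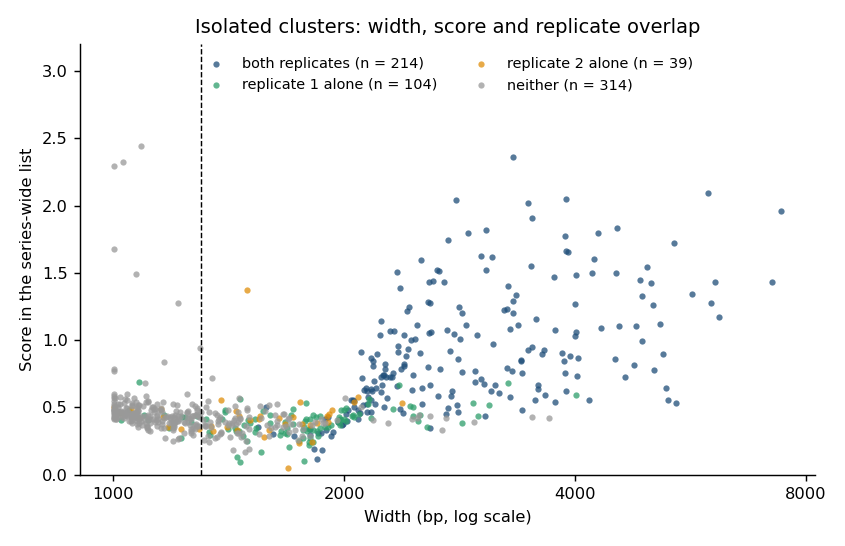
Width in bp (x axis, log scale) and score in the series-wide list (y axis) of each of the 671 isolated clusters, coloured by the replicates that overlapped it; the dashed line marks 1301 bp, the width of the narrowest replicate cluster. Clusters in both replicates lie to the right, from 1301 bp upwards, and the 6 highest grey points, with scores from 1.28 to 2.44, lie left of the line.

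Width differed along with replicate overlap. The narrowest cluster of either replicate list was 1301 bp wide, while the series-wide list went down to 1001 bp. Of the isolated clusters 235, or 35.02%, were narrower than 1301 bp, against 19.1% of the others. Of these 235, neither replicate overlapped 214, or 91.1%, and both replicates overlapped 0 (0 to 1.61%). The others of that width were much alike. Of 2190, neither replicate overlapped 1939, or 88.5%, and both overlapped 0 (0 to 0.175%). In the next class, from 1301 to 1999 bp, both replicates overlapped 19 of 201 isolated clusters, or 9.45% (6.14 to 14.3%), and 10.1% of the others. From 2000 bp up to the limit of the rule the order turned: both replicates overlapped 195 of 235 isolated clusters, or 83.0% (77.7 to 87.2%), against 75.8% (74.7 to 76.9%) of others of that width. At 3000 bp or more it was 89 of 94, or 94.7% (88.1 to 97.7%), against 85.7% (84.4 to 86.9%).

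The higher share was seen in replicate 2. Among clusters of 2000 to 7999 bp, replicate 1 overlapped 93.2% of the isolated and 93.7% of the others, while replicate 2 overlapped 84.3% of the isolated and 77.9% of the others. When the other clusters were weighted so that their widths matched those of the isolated clusters, a comparison added after the data were seen, 28.4% of them were in both replicates and 45.96% in neither. Of the isolated clusters, 31.9% (28.5 to 35.5%) were in both and 46.8% (43.05 to 50.6%) in neither. The weighted share in both lies just below its interval, and the weighted share in neither lies inside its own. The mean difference in overlap then turned from -14.01 to 1.32 ± 4.79 points (SD, n = 2), with -2.07 points in replicate 1 and 4.71 points in replicate 2, a value smaller than its spread. Width entered the rule through the limit of 8000 bp, which no isolated cluster passes. Of the other clusters under that limit, 42.01% were in both replicates. Within quartiles of the series-wide score the lower share of isolated clusters remained in all but the lowest. From the lowest quartile to the highest, 9.36%, 5.52%, 31.0% and 90.1% of isolated clusters were in both replicates. Of the others, 9.34%, 13.9%, 53.9% and 98.3% were. Isolated clusters were also narrower in each quartile, with medians of 2967 and 3475 bp in the highest, and the part of width or score was not tested.

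**Figure D3:**
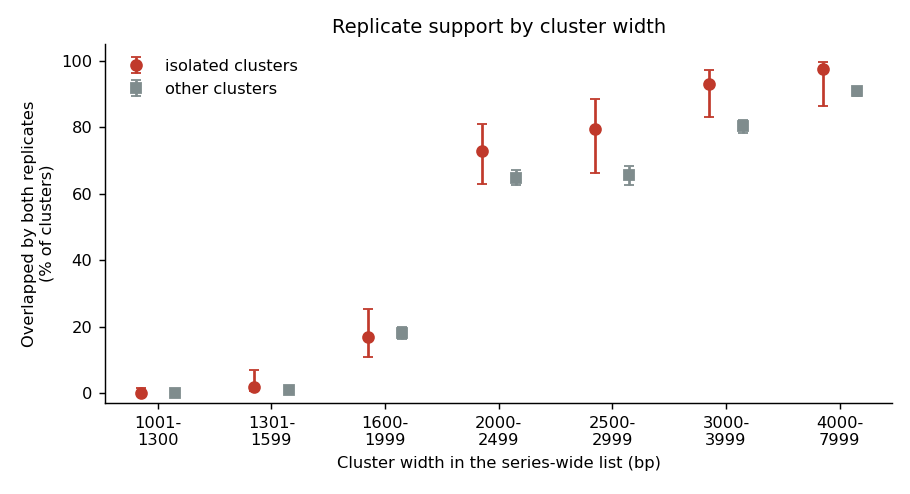
The share of clusters overlapped by both replicates (y axis, percent, with 95% Wilson intervals) in 7 width classes (x axis, bp), for isolated clusters as red circles and others as grey squares. The shares are near 0 in both groups under 1600 bp, and from 2000 bp upwards the isolated clusters lie above the others, with 97.4% against 90.8% in the widest class.

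Isolated clusters spanned the score range of the list. Their median score in the series-wide list was 0.454, against 0.463 for the others, which put the median isolated cluster at percentile 47.6 of the 5 arms (43.97 to 51.3, from an exact binomial interval on ranks). By score, 64 of the 671 were in the top 10% of the list, or 9.54%, and 42 were in the top 5%, or 6.26%. The wider ones had higher median scores than other clusters of like width. Among clusters of 3000 to 7999 bp, the median score was 1.07 for isolated clusters and 0.741 for others in the series-wide list. In the replicates' own lists the medians were 1.18 for isolated clusters and 0.895 for others in replicate 1, and 1.15 for isolated clusters and 0.962 for others in replicate 2. Among clusters narrower than 1301 bp the median was 0.441 for isolated clusters and 0.421 for others.

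Between these widths the scores dipped in both groups. Clusters under 1301 bp had a median score of 0.441 when isolated and 0.421 otherwise. Clusters of 1301 to 1999 bp had a median score of 0.371 when isolated and 0.376 otherwise. From 2000 to 7999 bp the medians were 0.772 for isolated clusters and 0.631 for others. Across the 436 isolated clusters at or over 1301 bp, width and score had a Spearman coefficient of 0.751, against 0.678 for others of 1301 to 7999 bp. Across all 671 it was 0.418, against 0.595 for others under 8000 bp. These describe clusters of the same libraries, which are not independent samples.

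The isolated clusters in both replicates had similar positions and score ranks in the 2, as did the other clusters in both. Their replicate 1 scores ran from 0.150 to 2.60 with a median of 0.905, and their replicate 2 scores from 0.328 to 2.35 with a median of 0.913. All clusters of the 5 arms had a median of 0.671 in the replicate 1 list and 0.812 in the replicate 2 list. Near-equal values thus stand at different heights in the 2 lists. Across the 214, the Spearman coefficient of the scores was 0.829, given as a description of clusters from shared libraries. Across the 5052 other clusters in both it was 0.842, with medians of 0.861 in replicate 1 and 0.865 in replicate 2. Replicate 1 covered a median of 96.4% of the bases of such a cluster, and replicate 2 covered 91.8%. For the other clusters under 8000 bp in both replicates, the medians were 95.7% in replicate 1 and 87.2% in replicate 2. Replicate 1 split 3 of the 214 isolated clusters into more than 1 cluster, or 1.40%, and 6.00% of the others under 8000 bp. Replicate 2 split 8 of the 214, or 3.74%, and 6.67% of the others under 8000 bp. The isolated clusters were the narrower ones here: their median was 2729 bp wide, and that of these others 3173 bp. In 205 cases a single cluster of each replicate matched a single isolated cluster. Starts then differed by a median of 84 bp and ends by 113 bp, and replicate 1 was the wider in 140 of them, or 68.3%. In 4156 such matches among the other clusters, of any width, the medians were 114 and 115 bp, and replicate 1 was wider in 77.3%. Both edges lay within 100 bp of each other in 26.3% of the isolated matches and 24.2% of the others.

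**Figure D4:**
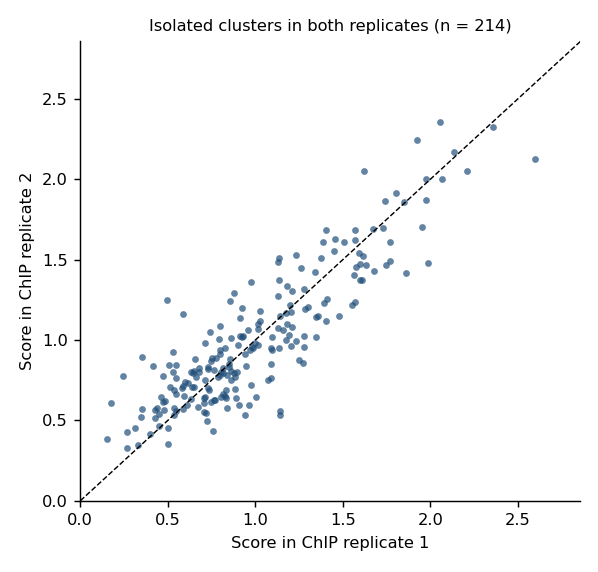
Score in ChIP replicate 1 (x axis) and in ChIP replicate 2 (y axis) of the 214 isolated clusters that both overlapped, with the line of equal numbers dashed. The points rise together from 0.150 to 2.60 on the x axis and from 0.328 to 2.35 on the y axis.

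The highest-scoring isolated clusters were of 2 kinds. Of the 10 with the highest scores, 7 were wide and present in both replicates. The first of these lay on 3R at 17121462 to 17124786, 3325 bp wide, and scored 2.60 in replicate 1, 2.12 in replicate 2 and 2.36 series-wide. It was 21081 bp from the cluster on its left and 22739 bp from that on its right. That left neighbour, on 3R at 17092944 to 17100380, was itself isolated and was the widest of all isolated clusters at 7437 bp. It scored 2.36 in replicate 1, 2.33 in replicate 2 and 1.96 series-wide, and each replicate had 2 clusters in it. These neighbours were thus high in all 3 lists, with no cluster of the series-wide list between them.

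On the X, the cluster at 9445440 to 9451404 was 5965 bp wide and scored 2.13 in replicate 1, 2.17 in replicate 2 and 2.09 series-wide. A further one on the X, at 9211810 to 9215282, scored 2.21, 2.05 and 2.02 in the same order. On 3L, the cluster at 4038588 to 4042482 scored 2.06 in replicate 1, 2.35 in replicate 2 and 2.05 series-wide. The last 2 of the 7 lay on 2R at 402016 to 404810, with 1.92, 2.24 and 2.04, and on 2L at 3513104 to 3516620, with 2.07, 2.002 and 1.91. In each of the 7 both replicates covered at least 83.8% of the cluster.

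The other 3 of the 10 were about 1 kb wide and absent from both replicate lists. They lay on 3L at 5454206 to 5455290, on 2R at 4285650 to 4286678 and on 2R at 2243652 to 2244652. Their widths were 1085, 1029 and 1001 bp and their series-wide scores 2.44, 2.32 and 2.296. The first had the highest score of any isolated cluster. The next highest without a replicate were on 3L at 7683230 to 7684230, 1001 bp wide with a score of 1.68, and on 2L at 22303678 to 22304748, 1071 bp wide with 1.49. In the top 10% of scores, 6 of 64 isolated clusters were in neither replicate, or 9.38%, against 13 of 1152 others, or 1.13%. All 6 were narrower than 1301 bp, as were 12 of the 13.

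Isolated clusters that a single replicate held mostly scored low. Those in replicate 1 alone had a median score of 0.403 and those in replicate 2 alone 0.418, where those in both had 0.825. Those in neither had 0.428, so the score did not rise step by step with the number of replicates. The other clusters had 0.406, 0.411, 0.736 and 0.407 in the same order. Median widths of the isolated ones were 1775, 1553, 2729 and 1195 bp in that order. The highest in replicate 1 alone was on 2R at 20586976 to 20588054, with a series-wide score of 0.687 and a replicate 1 score of 0.566. It was followed by X at 22096886 to 22100158, a cluster of 3273 bp with 0.681 and 0.798, and X at 3911140 to 3913500 with 0.669 and 0.724. In replicate 2 alone, 1 cluster stood above the rest: 3L at 23663564 to 23665056, 1493 bp wide, scored 3.65 in replicate 2 and 1.37 series-wide. The next were X at 10417670 to 10419752 and 3L at 22793232 to 22794614, with series-wide scores of 0.580 and 0.557.

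The most remote cluster was on 3L at 24224044 to 24226032. It had an empty stretch of 491441 bp on its left and 119483 bp on its right, and it was in both replicates, with scores of 0.503 in replicate 1, 0.453 in replicate 2 and 0.369 series-wide. The next by distance to the nearer neighbour was on 2R at 1380630 to 1384032, with gaps of 120297 and 106911 bp and scores of 0.977, 0.719 and 0.852 in the same order. Next came 3L at 23572604 to 23574628, with gaps of 238581 and 88935 bp and scores of 0.483, 0.622 and 0.478. These 3 lie towards the centromere end of the assembled arm. The following 2 did not. The cluster on 3R at 6896678 to 6898062, with gaps of 111941 and 84127 bp, was in replicate 1 alone. The cluster on the X at 2755220 to 2756468, with gaps of 70685 and 67825 bp, was in neither replicate. In these 5 the series-wide scores ran from 0.369 to 0.852, below those of the 10 highest.

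At the width limits, the 3 widest were the 3R cluster of 7437 bp named above, one on 2R at 2694264 to 2701496 with 7233 bp, and one on 3R at 3071018 to 3077182 with 6165 bp. Each was in both replicates, and their series-wide scores were 1.96, 1.43 and 1.17. The narrowest width, 1001 bp, was shared by 16 isolated clusters, among them 2L at 1538310 to 1539310 with a score of 0.466 and 2L at 13126922 to 13127922 with 0.413, both in neither replicate.

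The gap minimum cut through a continuous range of gaps. Just inside the gap minimum lay X at 20394186 to 20396844, with a nearer gap of 10015 bp and a score of 1.51, and 3R at 11999346 to 12001134, with 10021 bp and 0.326. Just outside lay 3R at 27785856 to 27787594, with 9999 bp and 0.343, and 3R at 25902890 to 25904056, with 9985 bp and 0.419. Of the 117 isolated clusters with a nearer gap under 11000 bp, 34.2% were in both replicates, and of the 126 clusters from 9000 to 9999 bp 36.5% were. The shares in neither replicate lay further apart, at 44.4% of the 117 and 34.9% of the 126. The width limit kept out 3 clusters with the same gaps, all in both replicates, of which the narrowest was on 2R at 15114418 to 15122434 with 8017 bp.

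Isolated clusters occurred on all 5 arms. There were 158 on 2L, or 6.87 per megabase of header sequence (exact Poisson interval 5.84 to 8.02), 131 on the X, or 5.84 (4.88 to 6.93), and 155 on 3R, or 5.55 (4.71 to 6.501). Arm 3L held 125, or 5.09 (4.24 to 6.07), and 2R held 102, or 4.82 (3.93 to 5.86). The intervals of neighbouring arms in this order overlap. The X had 1.05 times the density of the autosome arms (0.857 to 1.27), a range that includes equal density, where the other clusters were less dense on the X with a ratio of 0.841 (0.800 to 0.884). Isolated clusters thus made up 6.53% of X clusters and 5.32% of autosome clusters. The X ones ranked higher by score, at a median percentile of 61.8 against 42.9 on the autosomes, and the other clusters did likewise, at 62.8 on the X and 46.2 on the autosomes.

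Each of the 117 complete 1-Mb bins of the arms held at least 1 isolated cluster, with a median of 5. The most, 14 each, were in 3R at 3000001 to 4000000 and in X at 9000001 to 10000000, out of 75 and 80 clusters.

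Along the arm, the share of isolated clusters found in both replicates was highest near the centromere end, and that of other clusters stayed between 40.5% and 45.9%. In the 20% of each arm nearest the centromere, 63 of 131 isolated clusters were in both replicates, or 48.1%, against 44.4% of the others. In the next 3 stretches of 20% the shares of isolated clusters were 28.5%, 31.7% and 28.03%, against 40.5%, 45.9% and 44.8% of the others. In the outermost 20% 25 of 112 isolated clusters were, or 22.3%, against 44.5% of the others. The median width of isolated clusters was also highest in the stretch nearest the centromere, at 1965 bp. In the stretches further out it was 1595, 1669, 1459 and 1593 bp, an order that differs from that of the shares. The part of width in the shares was not tested. Counted in the 1 Mb nearest the centromere end of the assembled arm, 22 of 38 isolated clusters were in both replicates, or 57.9%, against 45.7% of the others. Arms differed there: isolated clusters were 11 of 16 clusters on 2R, with 10 of the 11 in both replicates, and 5 of 8 clusters on 3L, with 4 in both. On 3R they were 5 of 124 clusters, with 1 in both, and on the X 6 of 61, with 1 in both. On 2L they were 11 of 39, with 6 in both.

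Some isolated clusters followed each other along the arm. Neighbours share a gap, so the neighbour of an isolated cluster already meets the rule on 1 of its sides, and the counts that follow describe the members only. Of the 671, 393 or 58.6% stood next to another isolated cluster, in 151 rows of 2 or more with no other cluster between them. The share in both replicates was 31.04% for those in rows and 33.1% for the 278 that stood singly. Most rows were pairs, 100 of the 151. Of the 1342 neighbour positions, 484 were taken by isolated clusters, which the rule keeps under 8000 bp. Other clusters took the remaining 858, and 9 of these were 8000 bp or more wide, or 1.05%, where 3.60% of all other clusters on the arms were that wide.

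The longest row, of 10 isolated clusters, spanned 560 kb of 2R from 74194 to 633818, at the centromere end of the assembled arm. Replicate 2 held all 10 and replicate 1 held 9. Scores in the series-wide list went from 0.118 to 2.04 with a median of 0.993. The first 4, at 74194, 128892, 356586 and 402016, scored 0.915, 1.13, 0.857 and 1.92 in replicate 1 and 1.14, 1.37, 0.885 and 2.24 in replicate 2. The fifth, at 433412, was missing from replicate 1 and scored 0.753 in replicate 2. The next 3, at 482648, 505664 and 558532, scored 0.352, 1.81 and 1.39 in replicate 1 and 0.895, 1.91 and 1.61 in replicate 2. The last 2, at 614916 and 631368, scored 0.150 and 0.650 in replicate 1 and 0.382 and 0.810 in replicate 2. High and low scores were thus mixed along this stretch.

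A row of 8 on 3L, also towards the centromere, ran over 1084 kb from 23141680 to 24226032. It contained the most remote cluster and the one with the high score in replicate 2 alone, and 7 of the 8 were in both replicates. The widest gap inside it was 491441 bp. Series-wide scores ran from 0.182 at 23730732 to 1.75 at 23141680, where the replicates had 1.74 and 1.86. On 2L a row of 8 spanned 448 kb from 22471450 to 22919246, near the centromere end again. Replicate 1 held 6 of them and replicate 2 held 5, and the highest, at 22873724, scored 1.97 in replicate 1, 1.87 in replicate 2 and 1.80 series-wide.

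**Figure D5:**
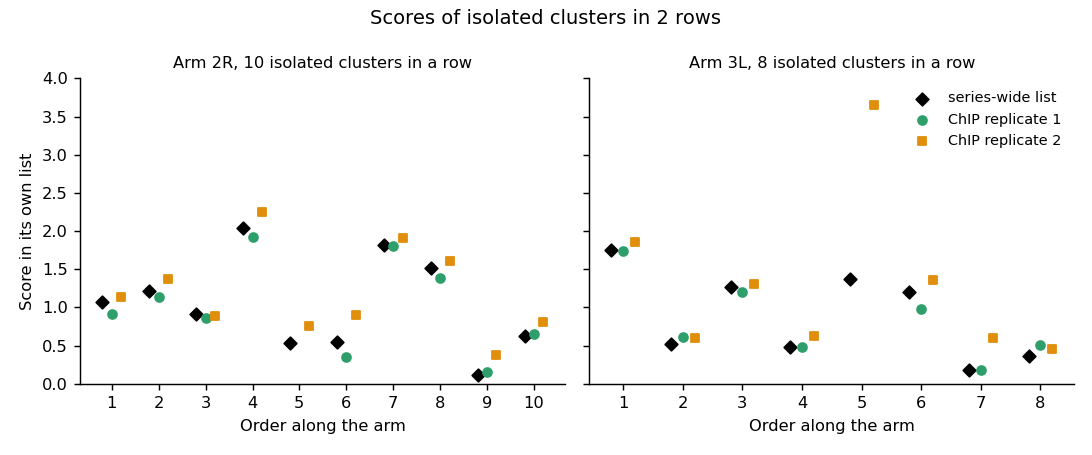
Scores (y axis, each in its own list) of the isolated clusters of the 10-cluster row on 2R and the 8-cluster row on 3L, in their order along the arm (x axis), with black diamonds for the series-wide list, green circles for ChIP replicate 1 and orange squares for ChIP replicate 2. A missing symbol means no overlapping cluster in that replicate, as for the fifth cluster of each row, which replicate 2 alone held.

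The fourth long row, of 8 clusters over 240 kb on the X from 9211810 to 9451404, lay away from the ends of the arm. Its first and last members were the high-scoring X clusters named above, at 2.02 and 2.09 in the series-wide list. The 4 between 9297580 and 9394532 scored 0.430, 0.507, 0.564 and 0.475, and no replicate 2 cluster overlapped them, while replicate 1 overlapped the last 2 with scores of 0.643 and 0.573. Replicate support was thus less even here than in the rows of 2R and 3L.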

How the data were processed

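H3K9ac ChIP-seq of Oregon-R embryos was analysed from the authors' 3 deposited lists of enriched regions, 1 for each ChIP replicate and 1 for the series. Per the file headers, coordinates are on FlyBase release 5. The score in column 6 was deposited by the authors. Not given in the sources used here are its scale, the aligner, the caller, the threshold and how the replicates were combined, and the read depth per sample is unknown.

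Gaps, overlaps of at least 1 bp, shares, 95% Wilson intervals, and exact Poisson and binomial intervals were computed with scipy 1.17.1, pandas 2.3.3 and numpy 2.4.6 in Python 3.11.15, and figures with matplotlib 3.10.9. A cluster with several replicate partners took the highest-scoring one. Overlap and gap code was tested on simulated data. With 2 replicates from which the members themselves were chosen, no difference was tested, and the SD over replicates stands beside each mean of both.

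Clusters named are the 10 highest-scoring, the 5 highest in neither replicate, the 5 most remote, the 3 widest and 3 narrowest, the 3 highest in each replicate alone and those beside the thresholds. Clusters of the 4 longest rows and the 2 bins with most members were named after their values were seen. The members and lists were chosen with earlier results of these data known. Alternatives tried were other gaps, no width limit, gaps to any list, clusters at or above the median score, a 50% overlap, and each replicate alone. Sequences were not used here, since no genome of release 5 was at hand.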

Additional observations from a re-analysis of the deposited data

How the results depend on the processing

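Over 8 results and their alternatives, 36 settings left the value within its spread, its interval or 1.5 times the count, 20 moved it and 1 turned its sign. With a minimum gap of 5000 bp, 1763 clusters were isolated and 49.5% ± 9.02 overlapped a replicate on average (SD, n = 2, here and below). The difference to others was -7.37 ± 3.19 points, 38.3% were in both replicates and 39.3% in neither. With 20000 bp, 185 were isolated, and their median score percentile was 51.9. With series-wide clusters at or above the median score, 68.3% ± 3.84 overlapped a replicate, 62.8% were in both and 26.2% in neither. The median percentile, ranked within that shorter list, was 38.5. Limiting the replicate lists likewise to scores from their median upwards leaves fewer to overlap. Then 23.4% ± 3.58 overlapped a replicate, 17.9% were in both and 71.1% in neither, and the difference was -6.69 ± 2.01 points. Among clusters of at least 1301 bp, added after the data were seen, 436 were isolated and 63.1% ± 10.06 overlapped a replicate. Of the 436, 49.1% were in both and 22.9% in neither, and the difference was -5.47 ± 3.99 points. With others weighted to the widths of the isolated clusters, also added, the difference was 1.32 ± 4.79 points. Apart from the construction of each alternative, the cause was not tested. Without either replicate, the mean overlap ranged from 37.7 to 47.4%, the difference from -17.7 to -10.3 points, and the share isolated in the replicate list from 94.5 to 98.1%. No limit on width, gaps to any of the 3 lists and a 50% overlap moved no value beyond its spread or interval. The X to autosome ratio ranged from 0.973 to 1.05. No paired analysis was possible because the groups that share replicate numbers are ChIP and input, and the input samples come without values; the differences between isolated and other clusters are given within each replicate. What depth limits is unknown too.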

Other observations

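Outside the large arms, 47 of the 167 series-wide clusters met the same gap and width rule, and 26 of the 47 were in both replicates. Chromosome 4, a short and largely heterochromatic chromosome, had 10 such clusters out of 88, of which 8 were in both. The heterochromatic scaffold 2RHet had 11 of 13, with 6 in both, and 3RHet had 6 of 10, with 4 in both. The unplaced sequence U had 14 of 23, with 5 in both. Fewer were isolated on the other scaffolds: 3LHet had 5 of 18, with 3 in both, and XHet 1 of 6, with 0 in both. On 2LHet it was 0 of 4 and on YHet 0 of 5. On short scaffolds the clusters at each end were left out, and distances on unplaced sequence do not follow the chromosome. The share of all clusters of these sequences in both replicates is not given here, so these counts are not compared with other clusters or with the arms.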
